A study of Homo sapiens with 6 samples.

Results

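The genes described here carry long-chain fatty acids into oxidation. They are 35 named genes of fatty acid activation and oxidation, found by symbol among the 60612 gene rows of the deposited table, and all 35 have a row. They comprise 5 long-chain acyl-CoA synthetases, 16 genes of mitochondrial oxidation, 7 of peroxisomal oxidation, 3 of electron transfer and 4 transcriptional regulators. RNA was sequenced from 6 libraries of SNU-368, labelled as a hepatocellular carcinoma line. Of these, 3 carried a control short hairpin (shCtrl) and 3 a hairpin against TFAM (shTFAM), and the comparison asks how lowering TFAM changes gene expression. TFAM packages mitochondrial DNA and is needed to transcribe it. The labels name neither the hairpin sequence nor its delivery, the time after it or the number of clones, and do not say whether the libraries of a group came from separate cultures. The spread between libraries, on which the p-values rest, may then be technical.

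As background, a fatty acid must first be joined to coenzyme A by a synthetase before it can be oxidised, stored or built into membranes. Acyl-CoAs enter mitochondria through the carnitine shuttle and lose acetyl-CoA units in repeated rounds of dehydrogenation, hydration, a further dehydrogenation and thiolysis. Electrons from the acyl-CoA dehydrogenases reach the respiratory chain through the electron transfer flavoproteins. Very long and branched chains are shortened first in peroxisomes, where an oxidase takes the place of the dehydrogenase. In liver the nuclear receptor PPARα drives many of these genes, with coactivators of the PGC-1 family.

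Counts were tested with edgeR's quasi-likelihood test on the 14708 rows whose mean over the 6 libraries reached 0.5 FPKM (fragments scaled to gene length and sequencing depth), and a row is called at a Benjamini-Hochberg adjusted p of at most 0.05 over all of these rows. CPM are counts scaled to library sizes corrected with TMM factors, log2 fold changes are shTFAM over shCtrl on that scale, and SE is the standard error of the log2 fold change. Library totals ran from 43286024 to 61058282 counts. The mitochondrial genome took 10.1 to 14.2% of counts in shCtrl and 7.91 to 10.7% in shTFAM. A principal component analysis of the libraries separated the groups on its leading component, which held 46.0% of the variance, while the next (16.6%) set shCtrl 3 off from replicates 1 and 2. TFAM itself (hg38 chromosome 10, 58385345 to 58399220) was measured at 82.2, 76.2 and 89.6 CPM in shCtrl and 63.7, 65.0 and 56.7 CPM in shTFAM. The groups did not overlap, and TFAM was 1.34-fold lower in shTFAM (log2 fold change -0.42, with SE 0.107, edgeR adjusted p = 0.0377). The knockdown was thus partial at the RNA level, and its call was lost when any single library was left out (edgeR adjusted p from 0.0676 to 0.0948). Defining hepatocyte genes were absent: 0 of 11 hepatocyte markers passed the filter and 7 of them, among them ALB, APOB and TTR, had 0 counts in every library. Of 7 carcinoma and fetal liver markers, 3 were tested and 1 was higher in shTFAM, against 11.3% of all tested rows. AFP, GPC3 and DLK1 had 0 counts in every library. The keratin KRT8 was higher (79.5 FPKM in shCtrl and 114.6 FPKM in shTFAM, log2 fold change 0.61, edgeR adjusted p = 0.0160). KRT18, at 174 and 157 FPKM, and KRT19, at 0.562 and 0.743 FPKM, were not called. EPCAM, at 0.109 FPKM in shCtrl and 0.0437 FPKM in shTFAM, lay under the filter. Of 7 fibroblast and stellate cell markers, 5 were tested and 2, DCN and PDGFRB, were higher in shTFAM, against 11.3% of all tested rows. DCN, at 0.201 FPKM in shCtrl and 1.48 FPKM in shTFAM, passed the filter only through its level in shTFAM. COL1A1, LUM and ACTA2 were not called (log2 fold changes 0.09, 1.17 and -0.68), and COL1A2 had 0 counts in every library. COL3A1 lay under the filter and was not tested. It had 18, 11 and 16 counts in shCtrl and 263, 257 and 172 in shTFAM (means 0.0385 and 0.581 FPKM). The summed level of the list was 24.9 to 38.4 FPKM in shCtrl and 37.7 to 41.2 FPKM in shTFAM, most of it COL1A1 (means 29.4 and 29.5 FPKM). The part of these markers in the results below was not tested. Of 6 leukocyte markers, 1 was tested, the lysosomal CD68, which was higher in shTFAM (5.49 FPKM in shCtrl and 13.9 FPKM in shTFAM), while PTPRC, LYZ and CD3E had 0 counts in every library, and of 5 endothelial markers 0 passed the filter. In bulk RNA, fewer cells that express a gene and less RNA per cell cannot be told apart.

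Sequences just before annotated starts of ACSL5 and ACSL4 are shown. These synthetases moved in opposite directions and had the strongest call in either direction among the 35 genes. RefSeq (GRCh38.p14) gave promoter windows for 28 of the 35 genes, and the stretches below are the parts of the 250 bases before an annotated start that lie outside annotated exons, read 5′ to 3′ on the strand of the gene. Capitals mark AGGTCA, the half-site bound by many nuclear receptors. The plus-strand stretch before the upstream ACSL5 start is chr10:112375018-112375234, that before the other ACSL5 start is chr10:112375955-112376197, and the minus-strand ACSL4 stretch is chrX:109733404-109733507. Both ACSL5 stretches lie inside the deposited gene row, which begins at 112374018, so these starts are internal to the row. Upstream and downstream rank the ACSL5 starts against each other only.
ACSL5 upstream start: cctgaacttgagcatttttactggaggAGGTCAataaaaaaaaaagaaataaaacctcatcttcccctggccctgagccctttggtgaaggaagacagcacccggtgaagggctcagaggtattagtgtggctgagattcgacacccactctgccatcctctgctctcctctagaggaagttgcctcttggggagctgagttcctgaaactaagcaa
ACSL5 downstream start: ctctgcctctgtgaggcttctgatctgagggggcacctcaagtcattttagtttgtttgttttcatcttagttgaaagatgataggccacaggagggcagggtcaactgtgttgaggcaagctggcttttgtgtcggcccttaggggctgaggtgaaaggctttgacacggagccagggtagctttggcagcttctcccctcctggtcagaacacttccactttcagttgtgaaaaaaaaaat
ACSL4: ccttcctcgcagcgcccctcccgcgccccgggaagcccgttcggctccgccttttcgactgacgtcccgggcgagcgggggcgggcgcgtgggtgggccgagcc
The full windows differed in base composition. G and C made up 50.0% and 48.8% of the ACSL5 windows, with 3 and 2 CpG dinucleotides, and 77.2% of the ACSL4 window, with 42 CpGs. Over all 35116 promoter windows the median was 58.0% with 11 CpGs, and over the 47 windows of the 28 genes it was 67.2% with 21 CpGs. Genes that were not called also had windows at both ends. A window of HADH held 0 CpGs, of ACADVL 2, of PPARGC1B 3 and of ACSL1 41. Whether composition goes with the direction of change was not tested. On either strand (AGGTCA or TGACCT), the half-site occurred in 12.1% of all windows and in 3 of the 47, which belong to ACSL5 and ACSL6. It begins 223 bases before the upstream ACSL5 start. A match describes these letters only, and binding was not measured.

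Of the 35 genes, 33 passed the filter. ACSL6, a synthetase best known from brain, and ACADL, the long-chain acyl-CoA dehydrogenase, had 0 counts in all 6 libraries, which allows at most 0.0519 to 0.0677 CPM (3 counts, counting error only). Of the 33 tested genes, ACSL4 was higher in shTFAM and ACSL5, EHHADH and ACAT1 were lower, so 4 were called (12.1%), against 17.9% of all tested rows. In the direction of higher expression 1 of 33 was called against 11.3% of all rows, and in the direction of lower expression 3 of 33 against 6.59%. The CPM of the groups did not overlap for 14 of 33 genes (42.4%), 6 higher and 8 lower, a share near the 42.2% of all rows. Differences were mostly small: the median log2 fold change was -0.08 (all rows -0.02), and 30 of 33 genes (90.9%) had an absolute log2 fold change under 0.5, against 67.9% of all rows. The genes also varied little between replicates, with a median coefficient of variation of 7.39% in shCtrl and 9.49% in shTFAM, against 13.5% and 13.4% over all rows.

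**Figure D1:**
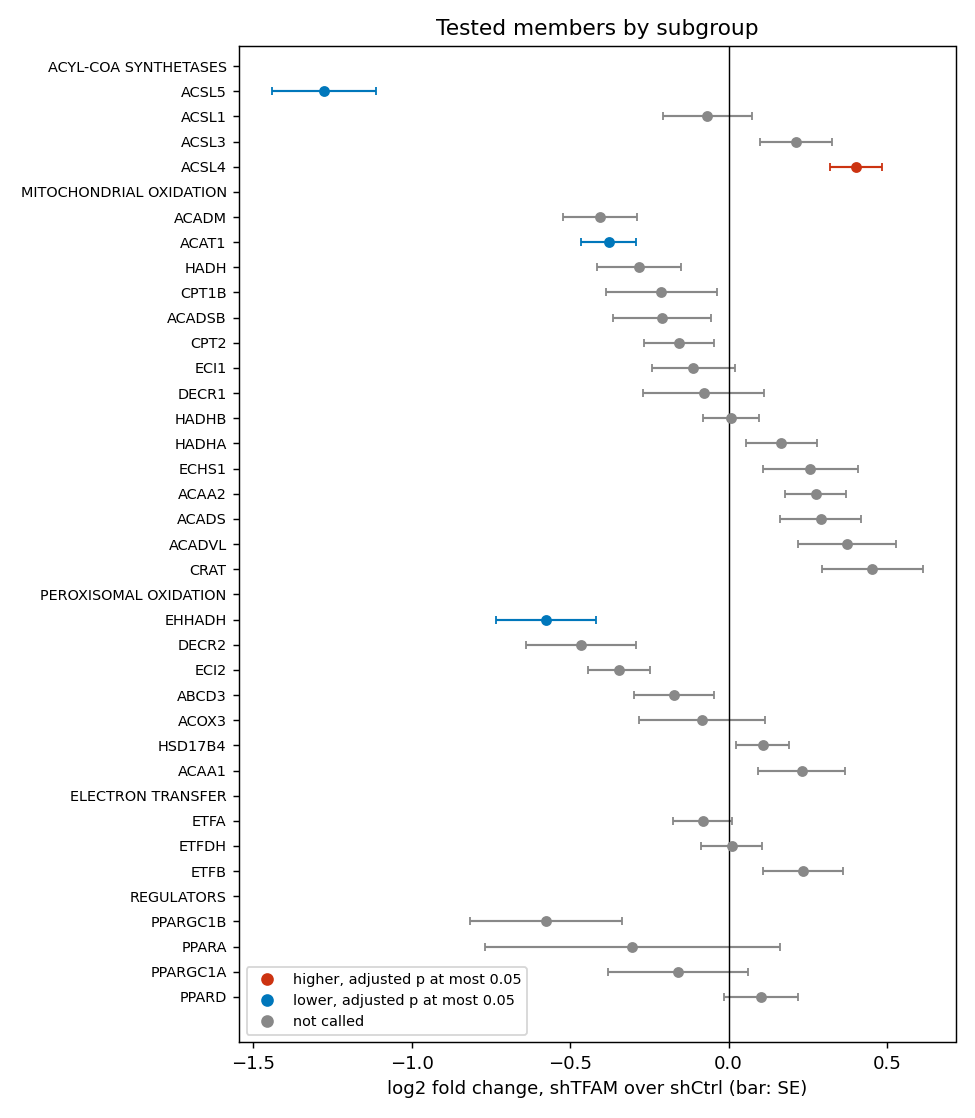
Log2 fold change (shTFAM over shCtrl, x axis) of the 33 tested genes, grouped by role, with bars for the SE. Red marks the gene called higher, blue the 3 called lower and grey the 29 not called; ACSL5 at -1.28 lies apart from the others, 30 of which lie within 0.5 of 0.

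Among the acyl-CoA synthetases, ACSL5 fell and ACSL4 rose, and ACSL1 and ACSL3 were not called. ACSL5 (chromosome 10, 112374018 to 112428380), a synthetase of the mitochondrial outer membrane and endoplasmic reticulum that is abundant in intestine and liver, was measured at 12.7, 11.7 and 10.1 CPM in shCtrl and 5.08, 4.69 and 4.47 CPM in shTFAM. Every shTFAM library was below every shCtrl library, and the mean went from 11.5 ± 1.27 to 4.74 ± 0.310 CPM (SD, n = 3 each). The fall was 2.42-fold (log2 fold change -1.28, with SE 0.164, edgeR adjusted p = 0.00452), and ACSL5 was the only one of the 35 genes with an absolute log2 fold change above 1. It was called in all 16 alternative analyses that tested it, with log2 fold changes from -1.41 to -0.75. On the opposite strand ZDHHC6 overlaps ACSL5 by 3953 bases. ZDHHC6 had 2597 counts per library on average, against 394 for ACSL5, and a log2 fold change of 0.22 (edgeR adjusted p = 0.152), opposite in sign to that of ACSL5.

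ACSL4 (chromosome X, 109624244 to 109733392), which prefers arachidonic and other polyunsaturated acids and supplies the membrane lipids that are oxidised in ferroptosis, stood at 91.7, 92.0 and 88.6 CPM in shCtrl and 116, 121 and 123 CPM in shTFAM. The spread within a group was small beside the difference, from 90.8 ± 1.91 to 120.0 ± 3.49 CPM (SD, n = 3 each). This was a 1.32-fold rise (log2 fold change 0.40, with SE 0.0823, edgeR adjusted p = 0.0198). The call did not survive the removal of shCtrl 1 or 2 or of shTFAM 2 or 3 (edgeR adjusted p up to 0.0706) and when libraries were scaled to their counts outside mitochondrial DNA (0.0617), with log2 fold changes of 0.27 to 0.41 over all 17 alternatives.

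ACSL3, the synthetase of the endoplasmic reticulum and of nascent lipid droplets, was measured at 181, 184 and 200.3 CPM in shCtrl and 206, 249 and 199 CPM in shTFAM (log2 fold change 0.21, with SE 0.113, edgeR adjusted p = 0.225). The groups overlapped, since shTFAM 3 lay below shCtrl 3. ACSL1, the main synthetase of oxidative tissues such as heart and fat, was at 28.0, 27.5 and 26.1 CPM in shCtrl and 29.3, 27.1 and 21.5 CPM in shTFAM (log2 fold change -0.07, with SE 0.141, edgeR adjusted p = 0.777). Its groups overlapped, with shTFAM 1 above and shTFAM 3 below all shCtrl libraries.

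**Figure D2:**
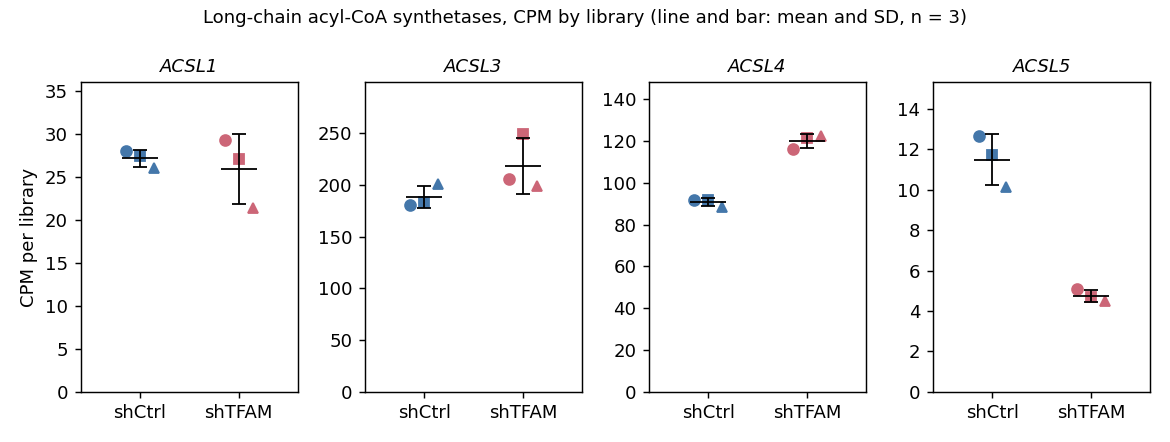
CPM of the 4 detected long-chain acyl-CoA synthetases in each library (circle, square and triangle for replicates 1, 2 and 3), with the mean and SD of 3 libraries as line and bar. ACSL4 lies at 88.6 to 92.0 CPM in shCtrl and 116 to 123 CPM in shTFAM, ACSL5 at 10.1 to 12.7 and 4.47 to 5.08 CPM, and the groups of ACSL1 and ACSL3 overlap.

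Compared per gene length, ACSL3 made up most of the synthetase RNA in every library. Of the summed FPKM of the 5 synthetases it held 55.4 ± 2.26% in shCtrl libraries and 56.0 ± 2.61% in shTFAM libraries (mean ± SD of 3). The share of ACSL4 was 29.6 ± 1.07% in shCtrl and 34.2 ± 2.59% in shTFAM, and that of ACSL5 was 5.78 ± 0.723% and 2.08 ± 0.206%. ACSL1 held 9.22 ± 0.486% and 7.68 ± 1.149%. The FPKM ratio of ACSL4 to ACSL5 within a library, which does not depend on how libraries are scaled, was 4.70, 5.10 and 5.67 in shCtrl and 14.9, 16.9 and 18.0 in shTFAM. These shares and ratios are descriptions without a test.

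Of the 15 tested genes of mitochondrial oxidation, edgeR called 0 higher and 1, ACAT1, lower. Their median log2 fold change was -0.08, and 5 of 15 had an unadjusted p under 0.05 in either direction, a share near the 34.8% of all tested rows (5116 of 14708). DESeq2 and limma also called 0 higher, and each called ACADM lower besides ACAT1. ACAT1 (chromosome 11, 108116695 to 108147603), the mitochondrial acetoacetyl-CoA thiolase that acts in ketone body use and isoleucine breakdown, stood at 139, 139.6 and 152 CPM in shCtrl and 114, 112 and 105 CPM in shTFAM. The groups did not overlap, and the mean fell from 143 ± 7.20 to 110.2 ± 4.60 CPM (SD of 3 libraries; log2 fold change -0.38, with SE 0.0877, edgeR adjusted p = 0.0285). ACAT1 was called in 10 of 17 alternatives, and the call was lost without shCtrl 1, shCtrl 2 or any single shTFAM library (edgeR adjusted p from 0.0599 to 0.0815).

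The carnitine shuttle genes were not called. CPT1B, the muscle form of the outer-membrane carnitine palmitoyltransferase, ranged from 10.5 to 13.2 CPM in shCtrl and from 8.39 to 11.2 CPM in shTFAM (log2 fold change -0.21, edgeR adjusted p = 0.433). The readthrough gene CHKB-CPT1B covers almost the same stretch on the same strand, with 472 counts per library on average against 528.5 for CPT1B. Its log2 fold change of 0.52 (edgeR adjusted p = 0.162) was opposite in sign to that of CPT1B. How reads were split between these rows is uncertain. CPT2, the inner-membrane enzyme, ranged from 39.6 to 43.7 CPM in shCtrl and from 33.5 to 40.5 CPM in shTFAM (log2 fold change -0.16, edgeR adjusted p = 0.351). CRAT, which joins carnitine to short acyl groups in mitochondria and peroxisomes, was at 32.7, 32.1 and 23.9 CPM in shCtrl and 44.9, 35.2 and 41.6 CPM in shTFAM. Although every shTFAM library was above every shCtrl library, its log2 fold change of 0.45 (SE 0.160) did not pass (edgeR adjusted p = 0.0914).

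The acyl-CoA dehydrogenases, which take the leading oxidation step and differ in the chain length they accept, had fold changes of both signs. ACADVL, for very long chains, was at 319, 304 and 224 CPM in shCtrl and 338, 346 and 414 CPM in shTFAM (log2 fold change 0.37, with SE 0.156, edgeR adjusted p = 0.137). ACADM, for medium chains, was at 72.0, 58.4 and 69.8 CPM in shCtrl and 51.3, 53.4 and 46.5 CPM in shTFAM (log2 fold change -0.40, with SE 0.117, edgeR adjusted p = 0.0536). Neither gene's groups overlapped, and neither passed the threshold, although ACADM passed in 7 of 17 alternatives. DLG4, which overlaps ACADVL by 2712 bases on the opposite strand, had 1585 counts per library on average against 15975 for ACADVL, and it was called higher (log2 fold change 0.80, edgeR adjusted p = 0.0481). The FPKM ratio of ACADVL to ACADM was 4.40, 5.17 and 3.19 in shCtrl and 6.55, 6.44 and 8.84 in shTFAM, without overlap. ACADS, for short chains, had a log2 fold change of 0.29 (edgeR adjusted p = 0.155), and the FPKM ratio of ACADM to ACADS was 1.25 to 1.49 in shCtrl and 0.725 to 1.03 in shTFAM. The FPKM ratio of ACADVL to ACADS overlapped, at 4.74 to 6.46 in shCtrl and 5.27 to 6.64 in shTFAM. ACADSB, which also acts on branched short chains, had a log2 fold change of -0.21 (edgeR adjusted p = 0.375).

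The later steps held the most abundant genes of the 35. HADHA and HADHB encode the subunits of the trifunctional protein, which carries out the last 3 steps on long chains, and lie head to head on chromosome 2 with 1463 bases in common. HADHA had the highest level, 86.8 FPKM in shCtrl and 92.1 FPKM in shTFAM, followed by the enoyl-CoA hydratase ECHS1 (82.5 and 93.1 FPKM) and by ACADVL (50.6 and 61.9 FPKM). The log2 fold changes of HADHA and HADHB were 0.17 (SE 0.112) and 0.01 (SE 0.0881), with edgeR adjusted p of 0.331 and 0.960. HADHB ranged from 188 to 216 CPM over the 6 libraries, and its sign changed with the scaling. ECHS1 was at 104, 111 and 149.9 CPM in shCtrl and 143, 138 and 156 CPM in shTFAM (log2 fold change 0.26, edgeR adjusted p = 0.265). Here shCtrl 3 lay with the shTFAM libraries, and without it ECHS1 was called higher (log2 fold change 0.43, edgeR adjusted p = 0.0368).

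HADH, the short-chain hydroxyacyl-CoA dehydrogenase, ranged from 54.7 to 63.1 CPM in shCtrl and from 40.4 to 53.7 CPM in shTFAM (log2 fold change -0.28, edgeR adjusted p = 0.181). ACAA2, the thiolase of medium chains, was at 81.9, 85.2 and 90.8 CPM in shCtrl and 96.3, 105 and 110.3 CPM in shTFAM (log2 fold change 0.27, edgeR adjusted p = 0.0910). Its groups did not overlap, in the direction opposite to ACAT1, another mitochondrial thiolase. The FPKM ratio of ACAA2 to ACAT1 was 0.704, 0.728 and 0.715 in shCtrl and 1.01, 1.12 and 1.25 in shTFAM. ECI1 and DECR1, which prepare unsaturated chains for oxidation, had log2 fold changes of -0.11 and -0.08 (edgeR adjusted p = 0.595 and 0.808). DECR1 was lowest in shTFAM 3 at 23.8 CPM, against 31.1 to 38.6 CPM in the other libraries. NBN overlaps DECR1 by 1824 bases on the opposite strand, with 3796 counts per library on average against 1628 for DECR1. The log2 fold change of NBN was -0.43 (edgeR adjusted p = 0.0620).

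**Figure D3:**
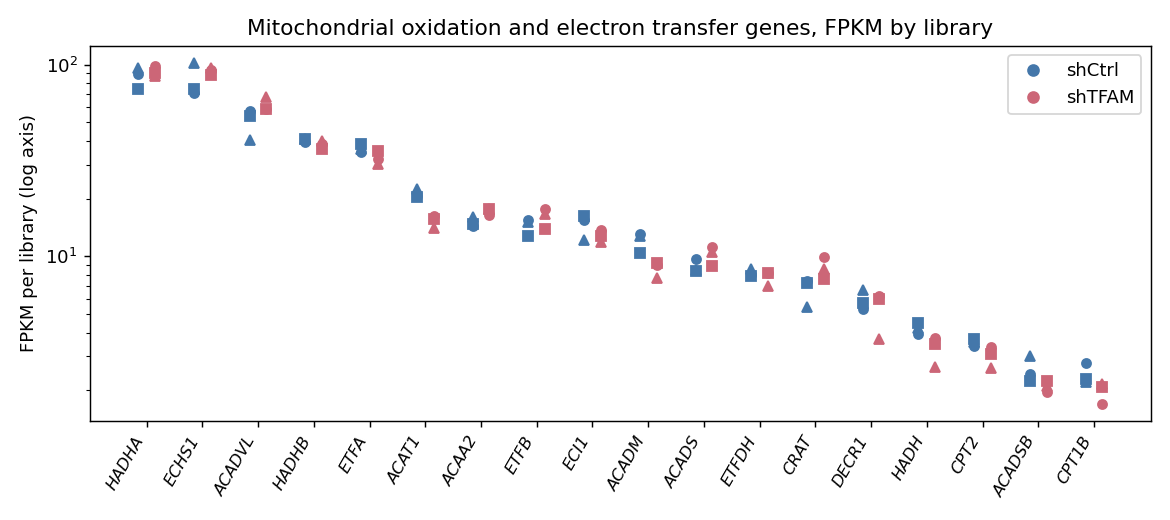
FPKM per library (log axis) of the 18 tested genes of mitochondrial oxidation and electron transfer, ordered by mean level, with shCtrl in blue and shTFAM in red (circle, square and triangle for replicates 1, 2 and 3). Levels run from about 90 FPKM for HADHA to about 2 FPKM for CPT1B. On this scale ACAT1, ACADM, HADH, CPT2, ACADSB and CPT1B lie lower in every shTFAM library than in any shCtrl library. ACADVL, ACAA2 and CRAT lie higher. Of these genes only ACAT1 was called, and in CPM the groups of CPT2, ACADSB and CPT1B overlap. FPKM sit lower in shTFAM over the 14708 tested rows. Their median change is -0.07 (log2) with limma on log2(FPKM + 1), against -0.02 on the CPM scale. How many of all rows do not overlap in FPKM was not computed.

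Of the 7 peroxisomal genes, all tested, edgeR called 0 higher and 1, EHHADH, lower. DESeq2 and limma also called 0 higher, and each called ECI2 lower besides EHHADH. An unadjusted p under 0.05 was found for 3 of the 7, against 34.8% of all rows. EHHADH (chromosome 3, 185190624 to 185281990), the bifunctional hydratase and dehydrogenase of the inducible peroxisomal pathway and a known PPARα target in liver, stood at 16.4, 18.8 and 16.7 CPM in shCtrl and 13.4, 11.4 and 10.01 CPM in shTFAM. No shTFAM library reached the shCtrl range, and the mean fell from 17.3 ± 1.28 to 11.6 ± 1.72 CPM (SD of 3), 1.49-fold (log2 fold change -0.58, with SE 0.158, edgeR adjusted p = 0.0465). EHHADH was called in 8 of 16 alternatives, and leaving out any single library except shTFAM 1 ended the call (edgeR adjusted p from 0.0754 to 0.131).

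HSD17B4, the other bifunctional enzyme, which handles very long and branched chains and bile acid precursors, was at 100.01, 102 and 100.2 CPM in shCtrl and 109.9, 112 and 104 CPM in shTFAM. Its groups did not overlap but differed little (log2 fold change 0.11, with SE 0.0833, edgeR adjusted p = 0.398). The FPKM ratio of EHHADH to HSD17B4 was 0.375, 0.421 and 0.382 in shCtrl and 0.279, 0.232 and 0.221 in shTFAM, so HSD17B4 was the more abundant per length in every library. ACAA1, the peroxisomal thiolase, ranged from 18.9 to 20.8 CPM in shCtrl and from 21.3 to 27.2 CPM in shTFAM (log2 fold change 0.23, edgeR adjusted p = 0.276).

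Both auxiliary enzymes for unsaturated chains had every shTFAM library below every shCtrl library without passing the threshold. ECI2, an isomerase, was at 107, 118 and 123 CPM in shCtrl and 86.1, 96.4 and 91.5 CPM in shTFAM (log2 fold change -0.34, with SE 0.0978, edgeR adjusted p = 0.0513), and it passed in 7 of 17 alternatives. DECR2, the peroxisomal dienoyl-CoA reductase, was at 19.4, 19.2 and 25.5 CPM in shCtrl and 17.9, 13.9 and 14.6 CPM in shTFAM (log2 fold change -0.47, with SE 0.173, edgeR adjusted p = 0.106). ABCD3, an importer of acyl-CoAs, and ACOX3, the oxidase of branched chains, had log2 fold changes of -0.17 and -0.08 (edgeR adjusted p = 0.369 and 0.803). Summed over the 7 genes, the level was 45.5 to 51.6 FPKM in shCtrl and 36.4 to 40.9 FPKM in shTFAM, while the mitochondrial genes summed to 339 to 377 FPKM and 363 to 383 FPKM. The most abundant of the 7, ECI2, which was not called, had means of 21.9 FPKM in shCtrl and 16.3 FPKM in shTFAM and weighs most in the peroxisomal sum. HSD17B4 (8.18 and 8.33 FPKM) and ACAA1 (2.42 and 2.69 FPKM) went the other way. All 35 genes together took 0.272 to 0.287% of the counts of a shCtrl library and 0.271 to 0.286% of a shTFAM library. FPKM were scaled to whole libraries, mitochondrial RNA included, and these sums were not tested.

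Of the 3 genes of electron transfer, 0 were called by edgeR, DESeq2 or limma, 0 had an unadjusted edgeR p under 0.05, and their groups overlapped. Over all tested rows edgeR called 17.9%, 34.8% had an unadjusted edgeR p under 0.05 and 42.2% did not overlap. Counts of 0 among 3 genes therefore say little. ETFA and ETFB, the subunits of the flavoprotein that collects electrons from the dehydrogenases, had log2 fold changes of -0.08 (SE 0.0932) and 0.23 (SE 0.126), with edgeR adjusted p of 0.580 and 0.232. ETFDH, which passes the electrons to ubiquinone, was at 41.4, 41.6 and 44.2 CPM in shCtrl and 44.0, 44.4 and 39.7 CPM in shTFAM. Its log2 fold change of 0.01 (SE 0.0972, edgeR adjusted p = 0.957) changed sign with the scaling. PPID overlaps ETFDH by 497 bases on the opposite strand, with 1978.5 counts per library on average against 2077 for ETFDH. The log2 fold change of PPID was -0.57 (edgeR adjusted p = 0.102). Per length, ETFA was 1.81 to 3.02 times as abundant as ETFB in every library.

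Of the 4 regulators, 0 were called by edgeR, DESeq2 or limma, and 1, PPARGC1B, had an unadjusted edgeR p under 0.05. Over all tested rows edgeR called 17.9% and 34.8% had an unadjusted edgeR p under 0.05, so such counts among 4 genes say little. PPARA, the receptor of fatty acid oxidation in liver, was low and the most variable of the 33 genes, at 6.47, 13.7 and 13.7 CPM in shCtrl and 15.7, 5.65 and 6.16 CPM in shTFAM. High and low libraries occurred in both groups, with a coefficient of variation of 37.1% in shCtrl and 61.8% in shTFAM (log2 fold change -0.30, with SE 0.465, edgeR adjusted p = 0.686). PPARD, the more widely expressed receptor of the family, was at 29.9, 28.8 and 27.6 CPM in shCtrl and 33.5, 32.0 and 27.2 CPM in shTFAM (log2 fold change 0.10, with SE 0.118, edgeR adjusted p = 0.579). Per length PPARD stood at 5.58 FPKM in shCtrl and PPARA at 0.735 FPKM, the lowest level of the detected genes.

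PPARGC1A, which encodes the coactivator PGC-1α of mitochondrial biogenesis and oxidation, was at 42.9, 41.3 and 23.6 CPM in shCtrl and 33.7, 30.4 and 32.4 CPM in shTFAM (log2 fold change -0.16, with SE 0.221, edgeR adjusted p = 0.652). All shTFAM libraries lay between shCtrl 3 and the other shCtrl libraries, and without shCtrl 3 the log2 fold change was -0.40 (edgeR adjusted p = 0.0517). PPARGC1B, which encodes the related PGC-1β, was at 26.1, 28.0 and 37.3 CPM in shCtrl and 23.3, 23.9 and 14.0 CPM in shTFAM. Every shTFAM library was lower, but the spread within groups was wide and the log2 fold change of -0.58 (SE 0.239) did not pass (edgeR adjusted p = 0.136). The third library stood apart in both groups, the highest in shCtrl and the lowest in shTFAM, and without both of these the log2 fold change was -0.19 (edgeR adjusted p = 0.276).

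**Figure D4:**
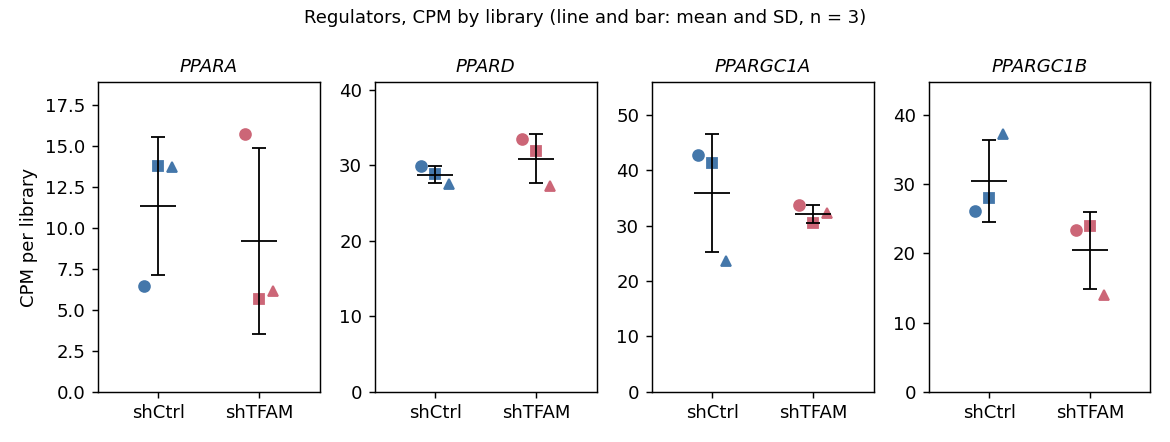
CPM of the 4 regulators in each library (circle, square and triangle for replicates 1, 2 and 3), with the mean and SD of 3 libraries as line and bar. The groups overlap for PPARA, PPARD and PPARGC1A, and for PPARGC1B they lie at 26.1 to 37.3 CPM in shCtrl and 14.0 to 23.9 CPM in shTFAM.

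Genes of neighbouring pathways outside the 35 were read from 9 lists. They hold 130 different genes, of which 100 were tested, and 11 were higher and 11 lower (22%, against 17.9% of all rows). Of all tested rows 11.3% were called higher and 6.59% lower. The counts of each list below are to be read beside these shares. Among 11 tested genes of fatty acid uptake and binding, 2 were higher and 1 lower, with a median log2 fold change of 0.28. ACBD5, which binds very long acyl-CoAs and tethers peroxisomes to the endoplasmic reticulum, rose from 35.1 ± 1.36 to 55.9 ± 6.19 CPM (here and below, mean ± SD of 3 libraries; log2 fold change 0.67, edgeR adjusted p = 0.0110). ACSBG1, an acyl-CoA synthetase of another family, rose from 3.67 ± 0.197 to 7.11 ± 0.720 CPM (log2 fold change 0.95, edgeR adjusted p = 0.0140) and was called in 11 of 16 alternatives, not without shCtrl 2 (0.0568). At 0.385 FPKM in shCtrl and 0.707 FPKM in shTFAM, ACSBG1 passed the filter of 0.5 FPKM only through its level in shTFAM. FABP5, a cytosolic fatty acid binding protein, fell from 10.9 ± 2.26 to 5.66 ± 0.513 CPM (log2 fold change -0.95, edgeR adjusted p = 0.0207), a call lost without shTFAM 1 or shTFAM 2 (up to 0.0670).

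Of 15 further tested genes of mitochondrial acyl-CoA oxidation, which include the liver carnitine palmitoyltransferase CPT1A, 1 was called, with a median of 0.05 over the list. This was PCCB, lower in shTFAM, a subunit of propionyl-CoA carboxylase, which handles the end product of odd chains (112.8 ± 9.19 to 80.5 ± 2.90 CPM, log2 fold change -0.49, edgeR adjusted p = 0.0186). PCCB was called in 13 of 17 alternatives, not without shCtrl 2, shTFAM 2 or shTFAM 3 (up to 0.0705). Among 6 tested genes of ketone body metabolism only OXCT1, which encodes the enzyme that activates acetoacetate just before the step of ACAT1, was called. OXCT1 fell from 315 ± 67.2 to 202 ± 14.6 CPM (log2 fold change -0.64, edgeR adjusted p = 0.0386), and it was called in 10 of 17 alternatives.

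Further peroxisomal oxidation genes gave 1 higher and 1 lower among 11 tested, the thioesterase ACOT8 (log2 fold change 0.73, edgeR adjusted p = 0.0116) and the coenzyme A hydrolase NUDT7 (-0.94, edgeR adjusted p = 0.0397). Among the 16 peroxisome assembly genes, all tested, PEX13 (0.44, edgeR adjusted p = 0.0319) and PEX6 (0.65, edgeR adjusted p = 0.0415) were higher and PEX10 (-0.61, edgeR adjusted p = 0.0366) was lower. NUDT7 was called in 8 of 16 alternatives, PEX10 in 10, and PEX13 and PEX6 in 4 each. Of 9 tested acyl-CoA thioesterases, ACOT11 was higher (0.69, edgeR adjusted p = 0.0358) and THEM4 lower (-0.85, edgeR adjusted p = 0.0188). ACOT11 kept the call in 5 of 16 alternatives, and THEM4 lost it without shCtrl 2 (0.0556).

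Of 5 tested genes that supply flavin cofactors or assemble the flavoprotein, 2 were called, both lower, with a median of -0.42. Over all tested rows 17.9% were called and 6.59% were lower, so counts among 5 genes say little. FLAD1, which makes the cofactor FAD used by every acyl-CoA dehydrogenase, fell from 52.5 ± 4.08 to 28.9 ± 4.38 CPM (-0.86 on the log2 scale, edgeR adjusted p = 0.00924). SLC25A32, a mitochondrial carrier for folate and FAD, fell from 37.0 ± 7.48 to 20.4 ± 2.90 CPM (log2 fold change -0.86, edgeR adjusted p = 0.0213). Leaving out shTFAM 2 or shTFAM 3 ended the call of SLC25A32 (edgeR adjusted p up to 0.0624), while FLAD1 was called in all 17 alternatives.

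Of 20 tested partners and coregulators of the PPAR receptors, 2 were higher and 2 lower, with a median of 0.02. PPARG, the adipogenic receptor of the family, rose from 28.99 ± 2.69 to 45.2 ± 0.858 CPM (log2 fold change 0.64, edgeR adjusted p = 0.0100). NRIP1, a corepressor of oxidative genes, rose from 21.9 ± 2.71 to 52.1 ± 15.8 CPM (log2 fold change 1.25, edgeR adjusted p = 0.0153), and the call was lost without shCtrl 2 (0.0558). LPIN1, a phosphatidate phosphatase that also coactivates PPARα, fell from 68.1 ± 10.97 to 39.5 ± 2.81 CPM (log2 fold change -0.79, edgeR adjusted p = 0.0126). PPRC1, the third coactivator of the PGC-1 family, fell from 117.7 ± 8.01 to 88.6 ± 3.57 CPM (log2 fold change -0.41, edgeR adjusted p = 0.0271), and was called in 11 of 17 alternatives, among single libraries left out only without shCtrl 3.

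The list of PPAR target genes had 10 of its 20 members tested, 3 higher and 1 lower, with a median log2 fold change of 0.16. Over all tested rows 11.3% were higher and 6.59% lower, and such counts among 10 genes say little. ANGPTL4, a secreted inhibitor of lipoprotein lipase, was at 2.26, 2.07 and 1.44 CPM in shCtrl and 28.9, 31.5 and 75.1 CPM in shTFAM (log2 fold change 4.56, with SE 0.446, edgeR adjusted p = 0.00239). PLIN2, the coat protein of lipid droplets, was at 139, 145 and 148 CPM in shCtrl and 568, 587 and 1045 CPM in shTFAM (log2 fold change 2.35, with SE 0.245, edgeR adjusted p = 0.00285). Both were highest in shTFAM 3. PDK4, a kinase that shuts off pyruvate dehydrogenase, had a log2 fold change of 0.41 (edgeR adjusted p = 0.0441) and was called in 6 of 17 alternatives. TXNIP, a thioredoxin-binding protein, fell from 202 ± 38.6 to 43.8 ± 20.1 CPM (log2 fold change -2.20, edgeR adjusted p = 0.00648). Genes of this list are also targets of other factors, so the list does not measure PPAR activity.

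**Figure D5:**
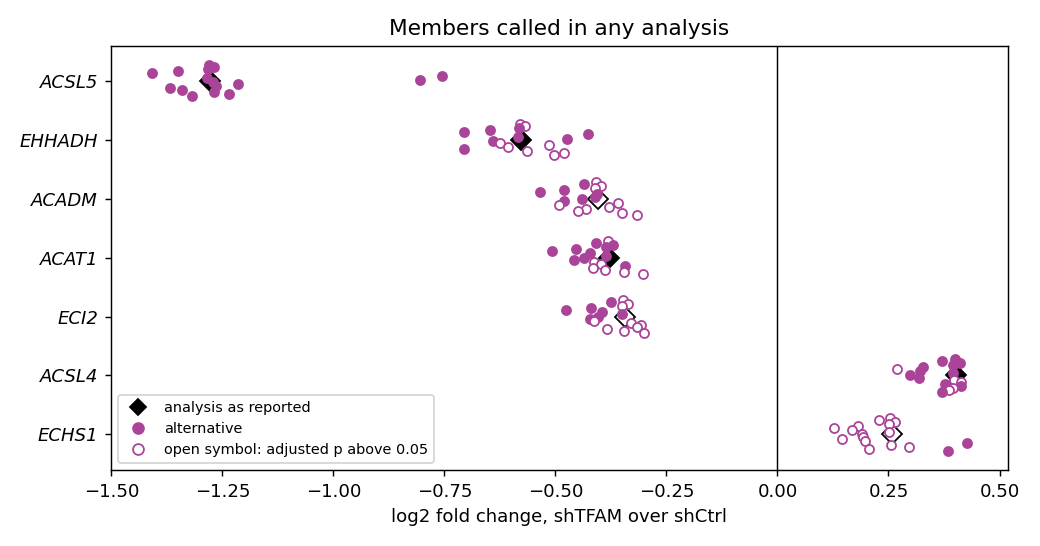
Log2 fold change (x axis) of the 7 genes of the 35 that were called in any analysis, under the analysis reported (black diamond) and the alternatives (circles), where an open symbol has an adjusted p above 0.05. ACSL5 is filled throughout, between -1.41 and -0.75, while each of the other 6 genes has open symbols and keeps its sign.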

How the data were processed

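RNA was sequenced in 3 shCtrl and 3 shTFAM libraries of SNU-368, made from poly(A) RNA with a strand mark and read from both ends, per the labels' protocols. The authors deposited 1 table of 60612 gene rows with raw counts and FPKM for each library, per the file headers. Tools named in the submitters' processing notes are StringTie 1.3.4d, HISAT2 2.0.4, cutadapt 1.9 and Bowtie 0.12.2; of the builds named there, mm8 and hg38, the human coordinates of the rows are given here as hg38. The counting tool, annotation and use of strand are not given in the sources used. Overlapping genes can therefore share reads. FPKM deposited by the authors were used for the filter, for levels compared between genes and for shares; FPKM of rows with a count of 0 were set to 0.

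Deposited counts were tested with edgeR 4.0.16 (R 4.3.3; quasi-likelihood, TMM factors 0.951 to 1.04, two-sided, no covariates) on rows averaging at least 0.5 FPKM, which held 99.4 to 99.5% of counts. SE is the absolute log2 fold change over the root of F. The common biological coefficient of variation was 0.251. Replicates differed by more than sampling noise (lowest chi-square per degree of freedom 41.9). Titles share no replicate numbers, so nothing was paired, and replicate numbers follow accession order. The 35 genes and the lists were chosen with earlier results of these data known.

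All 35 genes and TFAM were named, with up to 4 called genes of smallest p per list. Values in every library were given for called genes, synthetases, regulators and the 3 uncalled genes with the largest absolute log2 fold change; for other genes they were given after their values were seen. Alternatives were other filters, RLE factors, library totals with or without mitochondrial DNA, DESeq2 1.42.0, limma 3.58.1 on log2(FPKM + 1), log2(FPKM + 0.1) or quantile-normalized values, and libraries left out. Motifs were searched in 250-base RefSeq windows on both strands. FPKM ratios were computed for chosen pairs of genes. Those of HADHA to HADHB, ETFA to ETFDH, PPARGC1A to PPARGC1B and CPT2 to CPT1B overlapped between the groups and are not printed.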

Additional observations from a re-analysis of the deposited data

How the results depend on the processing

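The number of the 35 genes called higher was 1 as reported, 0 with library totals outside mitochondrial DNA, 2 without shCtrl 3 and shTFAM 3 and 0 to 2 with a single library left out. The number called lower was 3 as reported, 1 without a filter, 1 without shCtrl 3 and shTFAM 3, 1 to 2 with a single library left out, and 5 with library totals, library totals outside mitochondrial DNA, quantile normalization, DESeq2 and limma with either pseudocount (1 or 0.1). The 5 were ACSL5, EHHADH, ACAT1, ACADM and ECI2 in each of these 6 analyses. Rows called over the whole table numbered 2630 as reported and 1148 to 2065 with a single library left out. Scaling to library totals outside mitochondrial DNA took the median of all rows from -0.02 to -0.15 (log2) and the share of lower among called rows from 36.8% to 59.9%; with library totals this share was 48.5%, and with limma on log2(FPKM + 1) it was 51.1%.

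TFAM had a log2 fold change of -0.42 without a filter (edgeR adjusted p = 0.0644) and -0.30 without shCtrl 3 and shTFAM 3 (0.0818). With a single library left out it was -0.48 to -0.36, and each of these 6 analyses ended the call. No paired analysis was possible because the groups share no replicate numbers.

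Among uncalled genes, signs changed as follows. Library totals outside mitochondrial DNA gave HSD17B4 -0.023, PPARD -0.027, HADHB -0.13 and ETFDH -0.12. Library totals gave HADHB -0.067 and ETFDH -0.064. The filter at 5 FPKM gave HADHB -0.025 and ETFDH -0.021, quantile normalization -0.088 and -0.025, limma with pseudocount 1 -0.074 and -0.064, and limma with pseudocount 0.1 -0.076 and -0.072. Without shCtrl 3 and shTFAM 3, ACSL1 was 0.024, HADHB -0.043, DECR1 0.19, ACOX3 0.058 and PPARA 0.079. With a single library left out, ACSL1 ranged from -0.18 to 0.054, HADHB from -0.047 to 0.052, DECR1 from -0.20 to 0.11, ACOX3 from -0.23 to 0.0060 and ETFDH from -0.026 to 0.060. The cause of these changes was not tested.

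For the 130 genes of the pathway lists, alternatives were added after seeing the data. Genes called higher were 11 as reported, 7 without a filter, 6 with the filter at 5 FPKM, 7 with library totals outside mitochondrial DNA, 6 with limma at either pseudocount and 5 to 10 with a single library left out. DESeq2 called 16 higher, the most of any alternative. Genes called lower were 11 as reported, 7 with the filter at 5 FPKM, 17 with library totals outside mitochondrial DNA, 7 without shCtrl 3 and shTFAM 3 and 4 to 8 with a single library left out.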
